A study of Mus musculus with 8 samples.

Results

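The inner membrane of the mitochondrion holds 5 enzyme complexes that carry electrons from NADH and succinate to oxygen and make ATP, and most of their subunits are encoded in the nucleus. The nuclear subunit genes of complexes I to V were compared between mouse IMCD cells, a cell line named for the inner medullary collecting duct of the kidney, kept with and without added NaCl. Genes were taken from the raw count table by symbol: Nduf followed by a, b, c, s or v and a number, all Uqcr and Atp5 symbols, Sdha to Sdhd, and the common cytochrome c oxidase subunits. This gave 76 genes of 15288 in the table. By structure 36 belonged to complex I, 4 to complex II, 8 to complex III, 11 to complex IV and 17 to complex V. Ndufa4, which carries a complex I symbol, was placed in complex IV because the protein is a subunit of that complex.

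The series held 8 bulk RNA libraries, 4 per group. Both groups were grown in high-glucose DMEM with pyruvate and serum, then moved to DMEM without serum for 12 h. The NaCl group received 100 mmol NaCl in that medium, an amount the labels give without a volume, and the control group received none. Libraries keep the numbers of their labels, 1 to 4 for the control group and 5 to 8 for the NaCl group. No label says that they came from separate cultures, and p-values therefore measure the spread between these samples, which may be technical.

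Complex I oxidises NADH and complex II oxidises succinate, and both pass electrons to ubiquinone. Complex III hands the electrons on to cytochrome c and complex IV hands them to oxygen, while complexes I, III and IV pump protons across the membrane. Complex V, the ATP synthase, lets the protons flow back through a rotating ring of c subunits and uses that rotation to make ATP. Complexes I, III, IV and V also contain subunits encoded by mitochondrial DNA, and complex II contains none. The inner medulla of the kidney is poorly supplied with oxygen, and its collecting duct cells are known for a large share of glycolytic ATP.

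Promoter sequence is shown for 3 genes among those with the largest changes: Cox6a1, the complex IV gene with the largest rise, Cox7c, the complex IV gene with the largest fall, and Atp5g2, the complex V gene with the largest fall. They were chosen after their values were seen. The sequences are RefSeq's for build GRCm38.p6, from 250 bases before RefSeq's start up to the first of those bases that the GENCODE M21 annotation places in an exon of the gene, 5′ to 3′ on the gene's strand. RefSeq's starts lay 23 (Cox6a1), 109 (Cox7c) and 1305 (Atp5g2) bases inside the span of the gene in that annotation, so the stretch shown for Atp5g2 lies within the gene, between annotated exons. Capitals mark the core GCATGCGC bound by nuclear respiratory factor 1 (NRF1), a regulator of many respiratory chain genes, or its reverse complement GCGCATGC.
Cox6a1, chr5:115348982-115349208, minus strand: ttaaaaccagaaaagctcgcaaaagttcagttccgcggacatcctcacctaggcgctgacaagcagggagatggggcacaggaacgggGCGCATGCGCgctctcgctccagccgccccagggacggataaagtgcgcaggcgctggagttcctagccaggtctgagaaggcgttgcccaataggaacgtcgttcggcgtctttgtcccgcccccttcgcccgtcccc
Cox7c, chr13:86046905-86047045, minus strand: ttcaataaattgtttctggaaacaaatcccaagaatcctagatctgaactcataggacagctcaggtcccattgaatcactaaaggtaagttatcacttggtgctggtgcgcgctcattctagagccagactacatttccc
Atp5g2, chr15:102671128-102671297, minus strand: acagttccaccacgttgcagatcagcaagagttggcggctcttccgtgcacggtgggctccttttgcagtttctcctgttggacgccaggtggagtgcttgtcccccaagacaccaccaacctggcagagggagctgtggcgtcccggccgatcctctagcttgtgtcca

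In Cox6a1 the core matched on both strands, with first bases 162 and 160 bases before RefSeq's start. The same pair of overlapping matches lay 42 and 40 bases before RefSeq's start of Atp5g2, within an annotated exon and so outside the stretch printed. In the 250 bases before RefSeq's start Cox7c matched neither the NRF1 core nor the ETS core CCGGAAGT nor the YY1 core AAGATGGC, each searched on both strands. RefSeq promoters of 300 bases, running 250 bases before to 50 after the start, were found for 64 of the 76 genes. The NRF1 core stood in 10 of these 64 (15.6%), in 5.77% of 10659 tested genes with a promoter and in 2.71% of all 32851 promoter windows. The YY1 core also stood in 10 of 64, against 5.11% of tested genes and 2.75% of all windows. The ETS core stood in 5 of 64 (7.81%), against 9.03% of tested genes and 3.89% of all windows. By outcome, the NRF1 core was found in 1 of 5 genes that rose, in 1 of 6 that fell and in 8 of 53 that did not pass the test. Such a match is a description of letters in a window and not a binding site.

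Library totals ranged from 35.29 to 47.57 M counts, and the 76 genes took between 0.912% and 0.962% of them. The lowest count of any of the 76 genes in any library was 466. As a check of the treatment, the osmolyte genes Akr1b3, Slc5a3 and Slc6a12 all rose, Akr1b3 by 2.71 on the log2 scale (SE 0.054, edgeR adjusted p = 2.25e-13). The cell label was checked against 14 markers of collecting duct epithelium, of which 13 were in the table and 9 exceeded 1 CPM (the count over the scaled library total in M) in control cells. Cdh16 (639 CPM), Krt18 (217 CPM), Pax8 (159.6 CPM) and Pax2 (78.8 CPM) were expressed, while Aqp2 (0.024 CPM), the vasopressin-regulated water channel, Aqp3 (0.32 CPM), Avpr2 (0.108 CPM) and Cdh1 (0.195 CPM) were near 0, and Elf5 was not among the rows used. The summed collecting duct markers ran from 1087 to 1380 CPM in control and from 2068 to 2286 CPM in NaCl libraries, most of it Cdh16, which went from 639 to 1380 CPM. Pax2, Pax8 and Slc14a2 (log2 fold change 1.13) also rose. So did Cdh1 (1.43) and Avpr2 (2.595), both still under 1 CPM with NaCl. Gata3 fell (log2 fold change −0.44), and Krt8 and Krt18 stood at −0.18 and −0.08 without passing the test. Fibroblast markers (3 of 3 above 1 CPM) summed to 2357 to 2698 CPM in control and 2017 to 2368 CPM with NaCl, nearly all of it Col1a1, which fell (log2 fold change −0.21); Pdgfra also fell (−0.67), while Pdgfrb rose from 37.5 to 61.1 CPM (0.70). Leukocyte markers (2 of 3 in the table) summed to 5.95 to 7.19 CPM in control and 14.9 to 15.3 CPM with NaCl; of these Ptprc rose from 4.06 to 13.5 CPM, while Cd68 had 2.41 and 1.69 CPM and did not pass the test. Proximal tubule markers summed to 162 to 205 and 155 to 177 CPM, mostly Lrp2. Markers of thick ascending limb, podocyte and endothelium stayed under 3.5 CPM in every library, and none of 4 intercalated cell markers was among the rows used. The part of these marker differences in the results below was not tested, and in bulk RNA fewer cells of a type and less RNA per cell cannot be told apart.

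With NaCl, few nuclear respiratory chain genes changed, and those that did changed by at most 0.22 on the log2 scale in edgeR's fit of the groups alone. In complexes I, II and IV genes changed in both directions, although in complex I the only gene that rose, Ndufb2, lost its call in 11 of 19 alternatives. Of the 76 genes, 14 passed an adjusted p of 0.05 in edgeR's quasi-likelihood test, with p-values adjusted over all 14024 genes tested. That is 18.4% of the genes, where 34.1% of all tested genes were called. The genes that rose numbered 5 (6.58%, against 16.9% of all tested genes), and those that fell numbered 9 (11.8%, against 17.2%). Both shares were below those of all tested genes. In 3 genes (Sdha, Cox5a and Cox6a1) all NaCl libraries lay above all controls and in 6 all lay below, where 16.5% and 16.9% of all tested genes did so. Another 6 genes, 20 in all (26.3%), had an unadjusted p under 0.05, against 43.3% of all tested genes.

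The fold changes of the 76 genes were small. Their median log2 fold change (NaCl over control) was −0.01 and that of all tested genes was 0.00. The median absolute log2 fold change was 0.06, against 0.14 for all tested genes. Single values ran from −0.22 for Cox7c to 0.19 for Ndufa3, which did not pass the test (adjusted p = 0.0709, edgeR); it was called without control replicate 3 or NaCl replicate 6 (adjusted p = 0.0239 and 0.0308) and when the fit held library number centred on its group mean (adjusted p = 0.0375). Of all tested genes, 34.0% had a larger absolute log2 fold change than any of the 76. For 68 of the 76 genes (89.5%) the 95% interval of the fold change lay within 0.32 of 0 on the log2 scale, where 52.2% of all tested genes had such an interval. These genes were also measured more precisely than most: their median standard error was 0.045 and their median control level 82.2 CPM, against 0.066 and 29.9 CPM for all tested genes.

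**Figure D1:**
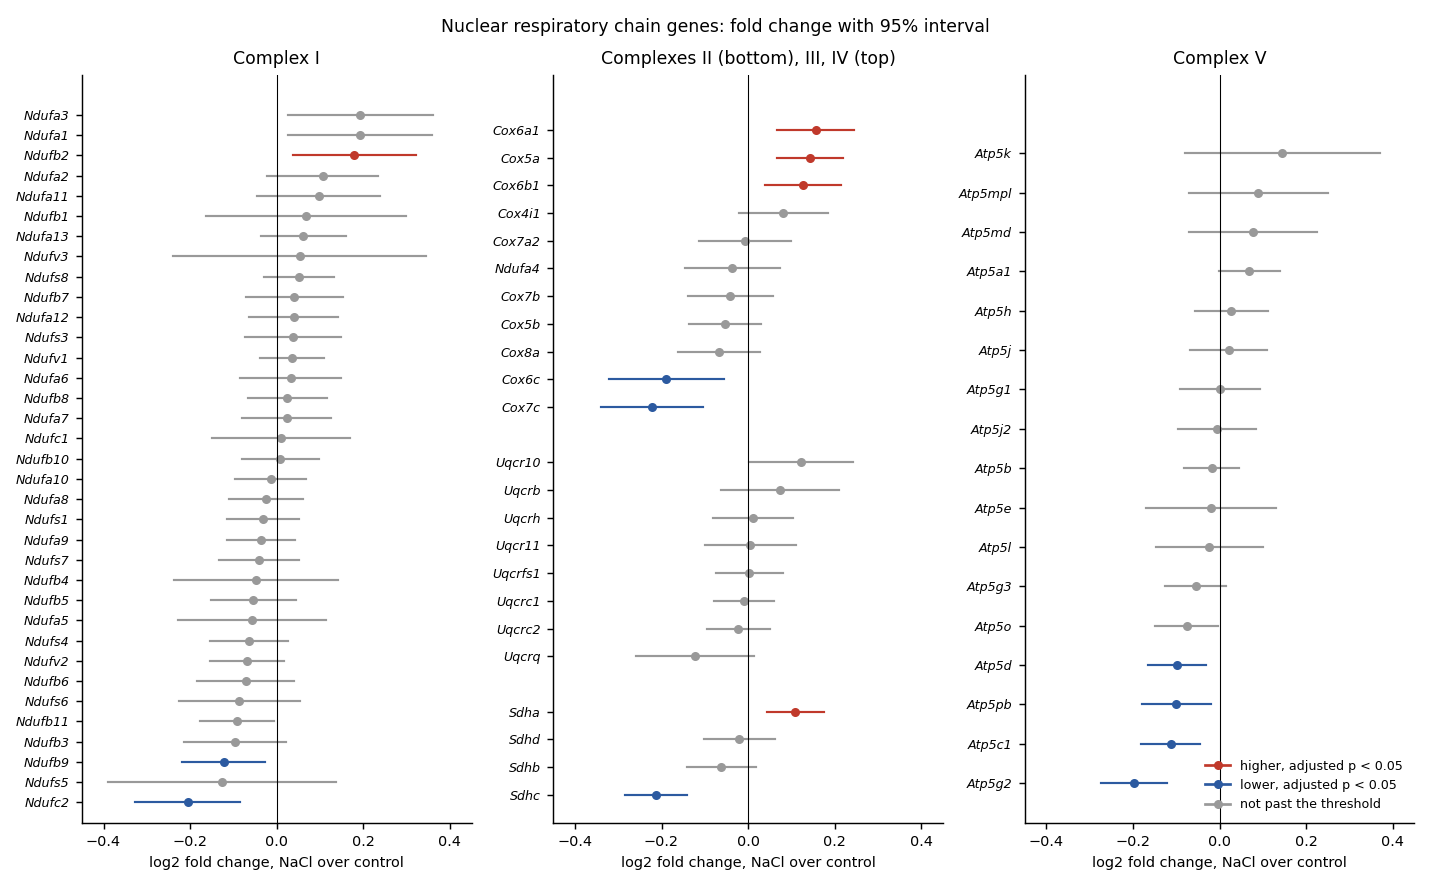
Log2 fold change (NaCl over control, x axis) with its 95% interval for the genes of each complex, in order of fold change within each complex (y axis). Red and blue mark the 5 genes that rose and the 9 that fell, and grey those that did not pass the test. All points lie between −0.22 and 0.19.

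Leaving out each library in turn left 8 of the 14 calls in place every time, those of Ndufc2, Sdha, Sdhc, Cox5a, Cox6a1, Cox7c, Atp5c1 and Atp5g2. The count fell from 14 to 9 without NaCl replicate 8, the number that rose fell from 5 to 3 without control replicate 1 or NaCl replicate 5, 7 or 8, and the number that fell went from 9 to 5 without control replicate 2 or NaCl replicate 6. The library number splits exactly along the groups. A fit with the number as a linear drift across libraries 1 to 8 called 6 of the 76 genes (24.1% of all tested genes), of which Sdhc, Cox7c and Atp5g2 were also called without it and Ndufs5, Ndufv3 and Uqcr10 were not. Of the calls lost, Cox6c stood at −0.04 under the drift (edgeR adjusted p = 0.87), Cox6b1 at 0.05 (adjusted p = 0.674) and Atp5pb at −0.01 (adjusted p = 0.931), all closer to 0 than without it. The other lost calls moved by less than 1.5 times, among them Cox5a at 0.16, Ndufc2 at −0.22 and Sdha at 0.11. A fit with the number centred within each group called 23 of the 76 (43.0% of all tested genes), including all 14.

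In complex I, 3 of 36 genes changed (8.33%, against 34.1% of all tested genes), all of them accessory subunits of the membrane arm. Ndufc2 and Ndufb9 fell and Ndufb2 rose. The median over complex I was 0.01.

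Ndufc2, which is needed for assembly of the membrane arm, had 34.1, 38.4, 33.5 and 36.7 CPM in the control libraries and 32.4, 29.2, 30.8 and 31.5 CPM in the NaCl libraries. Every NaCl library lay below every control. The log2 fold change was −0.21 (SE 0.057, edgeR adjusted p = 0.0107). Ndufb9 had 83.4, 86.7, 82.2 and 79.4 CPM in control and 75.8, 70.6, 81.0 and 77.3 CPM with NaCl, and the groups overlapped. It fell by 0.12 on the log2 scale (SE 0.045, edgeR adjusted p = 0.0456). Ndufb2 had 23.9, 26.2, 23.7 and 23.4 CPM in control and 28.7, 24.2, 29.2 and 28.0 CPM with NaCl. NaCl replicate 6 lay within the control range and the other 3 above it. Ndufb2 rose by 0.18 (SE 0.067, edgeR adjusted p = 0.0491).

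The calls of Ndufb9 and Ndufb2 lay close to the threshold and did not hold every time a library was left out. Without control replicate 1, 2 or 3 or NaCl replicate 5, 6 or 8 the adjusted p of Ndufb9 (edgeR) was between 0.0555 and 0.161. Without control replicate 1, 3 or 4 or NaCl replicate 5, 7 or 8 that of Ndufb2 was between 0.0889 and 0.146. Exons of Ndufb9 overlapped those of Gm49356 over 28.6% of their length, and those of Ndufb2 overlapped Braf and 2 other genes over 8.57%, so that reads there may be shared.

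The widest intervals of complex I belonged to Ndufv3 and Ndufs5, singled out here after their values were seen. Ndufv3 ran from 52.3 to 72.2 CPM in control and from 57.0 to 73.8 CPM with NaCl. Ndufs5 ran from 15.7 to 21.8 and from 14.2 to 20.9 CPM. In both genes the group ranges overlapped almost fully, and the log2 fold changes were 0.05 (SE 0.126) and −0.13 (SE 0.121). With the linear drift both were called by edgeR with the opposite sign, Ndufv3 at −0.54 (adjusted p = 4.19e-06) and Ndufs5 at 0.50 (adjusted p = 0.00789).

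In complex II, the smallest of the 5 and the only one that is also an enzyme of the tricarboxylic acid cycle, Sdha rose and Sdhc fell, 2 of 4 genes where 34.1% of all tested genes were called. Sdhb, the iron-sulfur subunit, and Sdhd, the second membrane anchor, did not pass the test. The catalytic flavoprotein and a membrane anchor of the same enzyme thus moved in opposite directions.

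Sdhc, which with Sdhd anchors the complex in the membrane and binds heme, had 113, 113, 109 and 115 CPM in control and 97.4, 96.6, 96.7 and 98.1 CPM with NaCl. The groups were far apart relative to their spread, and the log2 fold change was −0.21 (SE 0.034, edgeR adjusted p = 0.000127). Sdha had 322, 329, 331 and 327 CPM in control and 363, 343, 352 and 354 CPM with NaCl, with no overlap. It rose by 0.11 (SE 0.031, edgeR adjusted p = 0.0119). The ratio of Sdha to Sdhc in CPM, computed in each library after these results were seen and given as a description, went from 2.91 ± 0.09 (SD, n = 4) in control to 3.63 ± 0.08 (SD, n = 4) with NaCl. Sdhb had 102, 103, 104 and 99.3 CPM in control and 99.9, 102, 94.9 and 94.6 CPM with NaCl (log2 fold change −0.06, SE 0.038, edgeR adjusted p = 0.22). Sdhd had 121, 133, 127 and 136 CPM and then 127, 125, 126 and 131 CPM (log2 fold change −0.02, SE 0.039, edgeR adjusted p = 0.724). In Sdhb and Sdhd the groups overlapped. None of the 4 genes shared sequence with another annotated gene or overlapped its exons.

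In complex III none of the 8 genes passed edgeR's test, where 34.1% of all tested genes did, and 1, Uqcr10, had an unadjusted p under 0.05 (0.0477, adjusted p = 0.111), as 43.3% of all tested genes had. DESeq2 and limma-voom also called none of the 8. With the library number centred, edgeR called Uqcr10 (0.12, adjusted p = 0.0307) and Uqcrq (−0.12, adjusted p = 0.0263), and under the linear drift Uqcr10 stood at 0.30 (adjusted p = 0.0199). All 8 intervals lay between −0.26 and 0.24 on the log2 scale. Uqcrc1, a core scaffold subunit and the most abundant of them, had 231, 232, 228 and 239 CPM in control and 241, 229, 225 and 229 CPM with NaCl, and the groups overlapped (log2 fold change −0.01, SE 0.033, edgeR adjusted p = 0.851). The other core subunit Uqcrc2 stood at −0.02 and the Rieske iron-sulfur protein Uqcrfs1 at 0.00. The 5 small subunits ran from −0.12 for Uqcrq to 0.12 for Uqcr10. Without NaCl replicate 5, Uqcrq was called at −0.17 (edgeR adjusted p = 0.0399).

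In complex IV, 5 of 11 genes changed (45.5%, against 34.1% of all tested genes), in both directions: Cox6a1, Cox5a and Cox6b1 rose and Cox7c and Cox6c fell. The subunits that rose lie on the matrix side (Cox5a), in the membrane (Cox6a1) and on the intermembrane side (Cox6b1). Cox6c and Cox7c, which fell, are small subunits and lie in the membrane too, as Cox6a1 does. The median over the complex was −0.04.

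Cox6a1 had 122, 127, 126 and 119 CPM in control and 143, 127, 145 and 136 CPM with NaCl. Its groups did not overlap, although NaCl replicate 6 lay just above the highest control, and it rose by 0.16 (SE 0.042, edgeR adjusted p = 0.00838). Cox5a had 99.7, 99.3, 99.9 and 96.3 CPM in control and 112, 105, 108 and 112 CPM with NaCl. It rose by 0.14 with no overlap (SE 0.036, edgeR adjusted p = 0.00519). Exons of Cox5a overlapped the antisense gene Gm26631 over 41.7% of their length, and that gene held 90 counts over the 8 libraries where Cox5a held 34737. Cox6b1, which bridges the monomers of the dimeric enzyme, had 100.5, 109, 107 and 108 CPM in control and 120.0, 108, 115 and 119.9 CPM with NaCl. NaCl replicate 6 fell within the control range. Cox6b1 rose by 0.13 (SE 0.041, edgeR adjusted p = 0.0253), and without control replicate 1 or NaCl replicate 5, 7 or 8 its adjusted p was between 0.0544 and 0.0792.

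Cox7c had 76.9, 89.3, 89.9 and 84.6 CPM in control and 75.7, 66.1, 76.0 and 74.3 CPM with NaCl. The groups did not overlap, and control replicate 1 was the nearest to the NaCl libraries. This was the largest change of the 76 genes, −0.22 (SE 0.055, edgeR adjusted p = 0.00542). The transcript of Cox7c shared 32.9% of its bases with 2 annotated copies, so that its count may hold or miss reads of theirs. Cox6c had 116, 134, 123 and 106 CPM in control and 106, 104, 110.4 and 98.9 CPM with NaCl, with overlap. It fell by 0.19 (SE 0.061, edgeR adjusted p = 0.0298), and without control replicate 2 or 3 or NaCl replicate 5, 6 or 8 its adjusted p was between 0.0527 and 0.0717.

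Cox4i1, the largest nuclear subunit of complex IV and the most abundant, had 427, 468, 471 and 496 CPM in control and 482, 457, 516 and 515 CPM with NaCl. The groups overlapped and the gene did not pass the test (log2 fold change 0.08, SE 0.048, edgeR adjusted p = 0.211). With the library number centred it was called at 0.08 (adjusted p = 0.0196), and under the linear drift it stood at −0.14 without passing (adjusted p = 0.0788). Its exons overlapped those of Emc8 over 20.1% of their length. The remaining genes Cox5b, Cox7a2, Cox7b, Cox8a and Ndufa4 lay between −0.07 and −0.01.

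In complex V, 4 of 17 genes fell (23.5%, where 17.2% of all tested genes fell) and none rose in edgeR's test (16.9% of all tested genes). DESeq2 and limma-voom also called none higher, while with the library number centred edgeR called Atp5a1 higher (0.07, adjusted p = 0.0219) and Atp5o lower (−0.08, adjusted p = 0.0368). Atp5g2, a gene for the c subunit of the rotating ring, fell most. Atp5c1 encodes the gamma subunit, the central shaft that turns inside the catalytic head. Atp5d encodes the delta subunit at the foot of that shaft and Atp5pb the b subunit of the outer stalk. The catalytic beta subunit Atp5b and its partner alpha Atp5a1 did not pass the test of the groups alone.

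Atp5g2 had 156, 163, 159.9 and 169 CPM in control and 137, 139.9, 147 and 141 CPM with NaCl. There was no overlap, and the log2 fold change was −0.20 (SE 0.036, edgeR adjusted p = 0.000417). Under the linear drift it was −0.30 (SE 0.062, adjusted p = 0.000314). It is 1 of 3 genes that encode the same mature c subunit with different import sequences. Atp5g3 had 293, 298, 283 and 287 CPM in control and 293, 273, 278 and 276 CPM with NaCl, with overlap (log2 fold change −0.06, SE 0.033, edgeR adjusted p = 0.223). Atp5g1 had 77.0, 74.3, 67.8 and 74.1 CPM and then 74.2, 74.7, 70.9 and 73.5 CPM (log2 fold change 0.00, SE 0.043, edgeR adjusted p = 0.99). The 3 genes together summed to 526 ± 10.6 CPM (SD, n = 4) in control and 494 ± 7.02 CPM (SD, n = 4) with NaCl. The share of Atp5g2 in that sum was 29.7%, 30.5%, 31.3% and 31.8% in control and 27.1%, 28.7%, 29.7% and 28.8% with NaCl. The highest NaCl share was level with the lowest control share to 3 digits. The difference between the 3 genes was not tested. The transcript of Atp5g2 shared 26.8% of its bases with 3 annotated copies.

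Atp5c1 had 197, 205, 198 and 199 CPM in control and 189.8, 180.0, 183 and 187 CPM with NaCl, with no overlap (log2 fold change −0.11, SE 0.032, edgeR adjusted p = 0.0125). Atp5pb had 209, 219.5, 204 and 199.8 CPM in control and 202, 186, 195 and 193 CPM with NaCl. Its groups overlapped (log2 fold change −0.10, SE 0.038, edgeR adjusted p = 0.0496). The call of Atp5pb was lost with limma-voom and with library totals alone. Atp5d had 147, 153, 149.9 and 148 CPM in control and 138, 139, 140.3 and 141 CPM with NaCl, with no overlap (log2 fold change −0.10, SE 0.031, edgeR adjusted p = 0.0241).

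The calls of Atp5pb and Atp5d did not hold every time a library was left out. Without control replicate 1, 2 or 3 or NaCl replicate 6, 7 or 8 the adjusted p of Atp5pb (edgeR) was between 0.0554 and 0.158, and without control replicate 2 or NaCl replicate 5 or 6 that of Atp5d was between 0.0561 and 0.0653. The transcript of Atp5pb shared 64.6% of its bases with 3 other annotated genes, and 21.01% of its exon length overlapped Wdr77 and Gm42890 on the other strand.

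Atp5b, the most abundant of the 76 genes, had 1428, 1428, 1396 and 1389 CPM in control and 1422, 1389, 1373 and 1387 CPM with NaCl. The groups overlapped and the log2 fold change was −0.02 (SE 0.030, edgeR adjusted p = 0.684), with an interval from −0.08 to 0.04. Atp5a1 had 835, 868, 847 and 888 CPM and then 882, 889, 899.7 and 936 CPM, also with overlap (log2 fold change 0.07, SE 0.033, edgeR adjusted p = 0.119). The other stalk subunits Atp5o, Atp5h and Atp5j lay between −0.08 and 0.03. The 5 small membrane subunits, among them Atp5k and Atp5l at the dimer interface, ran from −0.02 to 0.14 without passing the test.

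**Figure D2:**
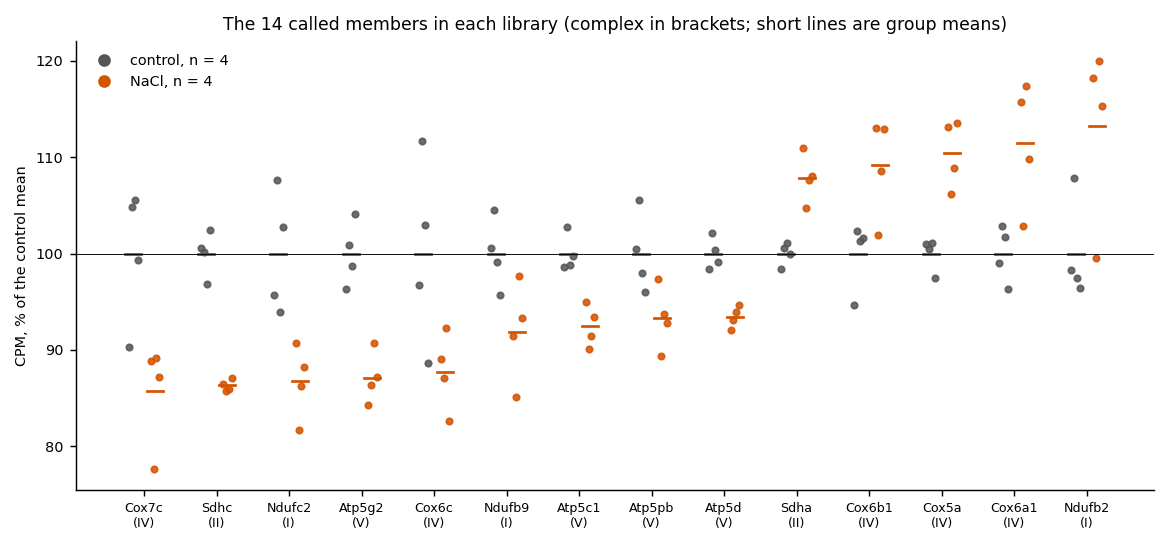
CPM of the 14 genes that passed the test, as a percentage of the gene's control mean (y axis), in each of 4 control libraries (grey) and 4 NaCl libraries (orange), with genes in order of log2 fold change along the x axis and group means as short lines. Ndufc2, Sdha, Sdhc, Cox5a, Cox6a1, Cox7c, Atp5c1, Atp5d and Atp5g2 lie apart from their controls, Cox6a1 and Cox7c narrowly. Ndufb9, Cox6c, Atp5pb, Cox6b1 and Ndufb2 overlap theirs.

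Summed over its nuclear genes, no complex differed beyond the spread between libraries. Complex I summed to 2243 ± 53.2 CPM (SD, n = 4) in control and 2254 ± 50.4 CPM with NaCl. Complex II summed to 671 ± 9.12 and 675 ± 9.10 CPM, with the ranges of the groups overlapping in both. Complex III ran from 834 to 867 CPM in control and from 816 to 873 CPM with NaCl. Complex IV summed to 1455 ± 49.0 CPM in control and 1475 ± 59.7 CPM with NaCl, and complex V to 4105 ± 70.2 and 4057 ± 60.1 CPM, also with overlap. These sums are led by a few genes: Sdha made up 48.8% of complex II, Atp5b 34.4% of complex V and Cox4i1 32.0% of complex IV. Without Sdha the other 3 complex II genes summed to 336 to 350 CPM in control and 317 to 324 CPM with NaCl, which did not overlap. Of these 3 genes only Sdhc passed the test. Without their most abundant gene the other 4 complexes still overlapped.

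**Figure D3:**
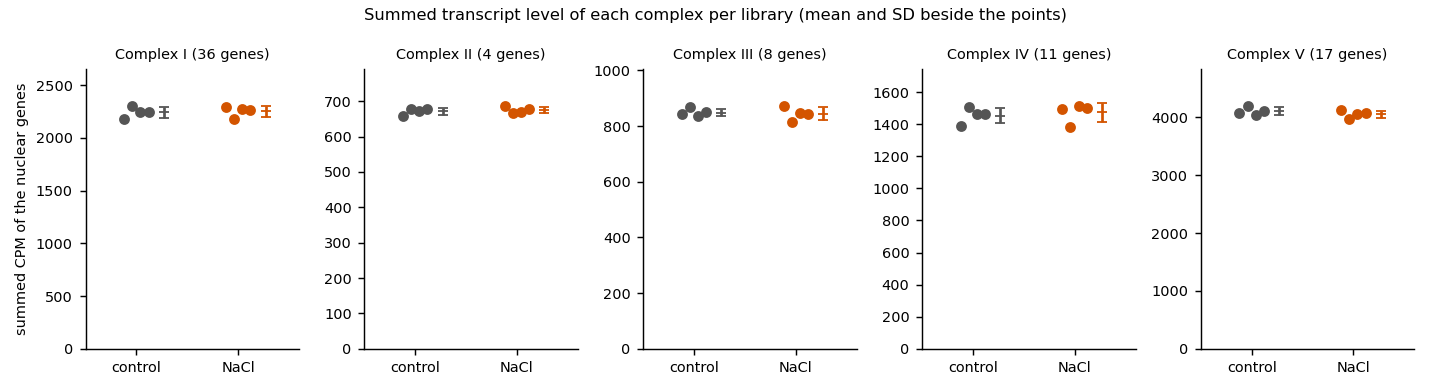
Summed CPM of the nuclear genes of each complex (y axis, from 0) in the 4 control libraries (grey) and the 4 NaCl libraries (orange), with the mean and SD beside the points. The control and NaCl points overlap in every complex, for example from 2176 to 2306 CPM and from 2179 to 2292 CPM in complex I.

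Levels between genes were compared per length of transcript, as CPM per kilobase in control cells. The median transcript of the 76 genes was 810 bases long, against 2825 bases over all tested genes with an annotated length. For 8 genes the annotated principal transcripts differed in length by over 1.5 times (Ndufb2, Ndufc1, Uqcrq, Atp5d, Atp5g1, Atp5g2, Atp5md and Atp5mpl), and Ndufb1 had no principal transcript. These 9 were left out of the comparison of levels. The other 67 had a median of 90.8 CPM per kilobase, where all tested genes had a median of 9.79. The median per kilobase was 58.9 in complex I (33 genes), 97.2 in complex II (4 genes), 105 in complex III (7 genes), 172 in complex IV (11 genes) and 160 in complex V (12 genes).

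Within a complex the levels differed widely. In complex V they ran from 54.8 CPM per kilobase for Atp5k to 736 for Atp5b, a 13.4-fold span. The lowest levels in complex I were 15.2 for Ndufb4 and 15.6 for Ndufa5. Complex IV ran from 73.6 for Cox7b to 616 for Cox4i1, followed by Cox8a at 233. Complex III was the most even, from 81.1 for Uqcr11 to 152 for Uqcrh. In complex II the anchor Sdhc stood at 35.5, while Sdhb, Sdhd and Sdha stood at 89.5, 105 and 113. The NaCl medians per kilobase were 58.8, 94.6, 104, 173 and 155 in complexes I to V.

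**Figure D4:**
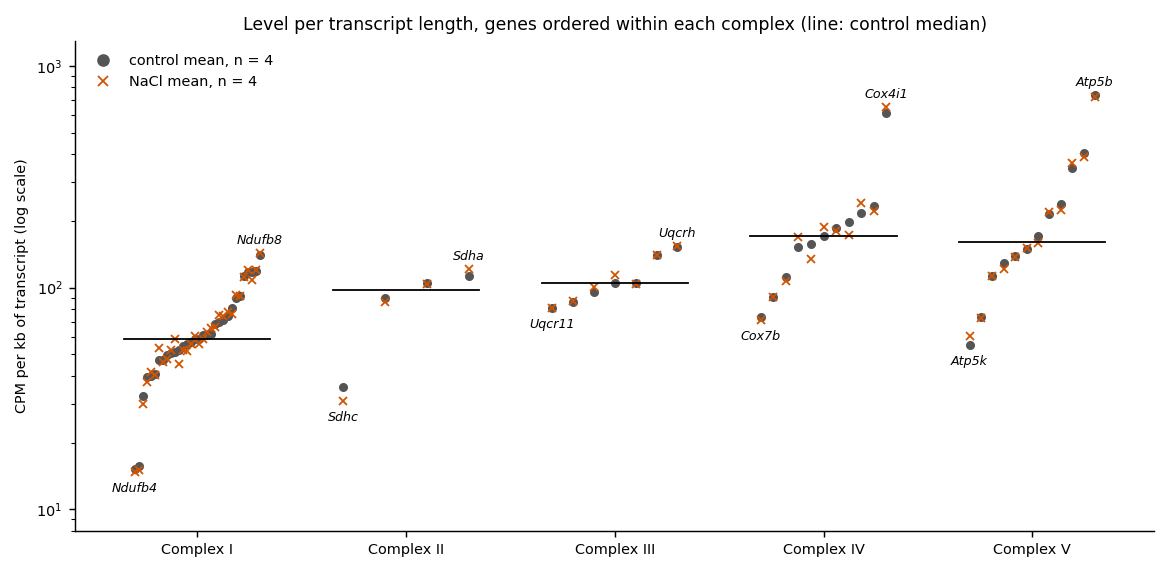
Mean CPM per kilobase of transcript (y axis, log scale) of genes with a clear transcript length, ordered by control level within each complex (x axis), in control (grey points) and NaCl (orange crosses). Black lines mark the control medians, from 58.9 in complex I to 172 in complex IV, and the highest and lowest gene drawn for each complex is named.

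Genes around the complexes were read from lists with the 76 genes removed, and their counts are read against the 34.1% of all tested genes called. Of 30 genes called in these lists, 19 were not called by edgeR with the library number as a linear drift. Among them, by log2 fold change under that drift, were Ttc19 (−0.01, adjusted p = 0.963), Cox7a2l (0.02, adjusted p = 0.877), Sdhaf2 (0.08, adjusted p = 0.546), Coq3 (−0.29, adjusted p = 0.294), Tmem242 (−0.20, adjusted p = 0.108), Uqcc3 (0.36, adjusted p = 0.0665), Ndufaf3 (0.24, adjusted p = 0.341), Dmac1 (−0.26, adjusted p = 0.216) and Ppargc1b (−0.705, adjusted p = 0.382). The values of Ttc19, Cox7a2l, Sdhaf2 and Coq3 were closer to 0 by over 1.5 times than without the drift, and those of the other 5 named moved by less than that. Of 8 tested subunits or close relatives outside the symbol rule, Cox7a2l, a factor that joins respiratory complexes into supercomplexes, rose by 0.13 (SE 0.036, edgeR adjusted p = 0.0117), and the other 7 did not pass the test. Cytochrome c (Cycs) and cytochrome c1 (Cyc1) both stood at −0.01. Of 8 tested subunits encoded in mitochondrial DNA, mt-Nd1 and mt-Nd2, core membrane subunits of complex I, rose by 0.28 (SE 0.064, edgeR adjusted p = 0.00666) and 0.23 (SE 0.067, adjusted p = 0.0236). Under the linear drift they stood higher, at 0.60 (adjusted p = 5.63e-11) and 0.53 (adjusted p = 4.62e-07). Without control replicate 3 or 4 the adjusted p of mt-Nd2 was 0.0521 and 0.0576.

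Assembly factors build the complexes and are not part of the finished enzymes, and of 60 tested 6 rose and 8 fell (23.3% called). Uqcc3 and Uqcc2, factors for cytochrome b of complex III, rose by 0.37 (SE 0.070, edgeR adjusted p = 0.000643) and 0.36 (SE 0.060, adjusted p = 0.000232), in NaCl libraries that all lay above the controls. Ttc19, another complex III factor, fell by 0.29 (SE 0.069, adjusted p = 0.00378), and the other 4 of 7 did not pass the test. Of 26 complex IV factors 2 rose and 5 fell (26.9%), from Coa3, needed for early assembly of Co1, at 0.29 (SE 0.044, adjusted p = 8.88e-05) to Coa4 at −0.49 (SE 0.159, adjusted p = 0.0238). Coa4 lost its call without control replicate 3 or NaCl replicate 6 or 7, with adjusted p between 0.0586 and 0.0814, and under the linear drift it stood at −0.885 (adjusted p = 0.0233).

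Of 18 complex I factors Ndufaf3 rose by 0.22 and Dmac1 fell by 0.20 (edgeR adjusted p = 0.0431 and 0.0332). Neither call held without each library: the adjusted p of Ndufaf3 was up to 0.128 without control replicate 1, 3 or 4 or NaCl replicate 5, 6 or 7, and that of Dmac1 up to 0.0956 without control replicate 1, 2 or 4 or NaCl replicate 5 or 6. Sdhaf2, which helps attach flavin to Sdha, rose by 0.15 (SE 0.042, adjusted p = 0.0104), alone among 4 complex II factors. Tmem242 fell by 0.18 (SE 0.046, adjusted p = 0.00685), alone among 5 complex V factors.

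Among 13 regulators of respiratory genes, 3 rose and 1 fell (30.8%). Gabpb2, a subunit of the ETS factor GABP, rose by 0.18 (SE 0.039, edgeR adjusted p = 0.00147). Ppargc1b, a coactivator at only 1.54 CPM in control, fell by 0.71 (SE 0.236, adjusted p = 0.0271), a call lost without control replicate 2 or 3 or NaCl replicate 6 or 8 (adjusted p between 0.0614 and 0.0838). Nrf1 stood at 0.03 (adjusted p = 0.769), Ppargc1a at 0.15 (adjusted p = 0.11) and Tfam, which packages mitochondrial DNA, at −0.13 (adjusted p = 0.0507).

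Of 18 genes of the tricarboxylic acid cycle and pyruvate dehydrogenase, 2 rose and 2 fell (22.2%), led by Ogdh, a subunit of the oxoglutarate dehydrogenase complex, at 0.21 (SE 0.035, edgeR adjusted p = 0.000246) and Pdha1 at −0.12 (SE 0.033, adjusted p = 0.00775). Of 19 genes that feed electrons to ubiquinone or make it, 2 rose and 3 fell (26.3%). The highest of those that rose was Gpd2, the mitochondrial glycerol phosphate dehydrogenase, at 0.13 (SE 0.041, adjusted p = 0.0201), and the lowest of those that fell was Coq3, a methyltransferase of ubiquinone synthesis, at −0.53 (SE 0.104, adjusted p = 0.000881). Gpd2 was not called without control replicate 2 or 3 or NaCl replicate 5 (adjusted p between 0.0565 and 0.074), and under the linear drift it stood at 0.22 (adjusted p = 0.0215).

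**Figure D5:**
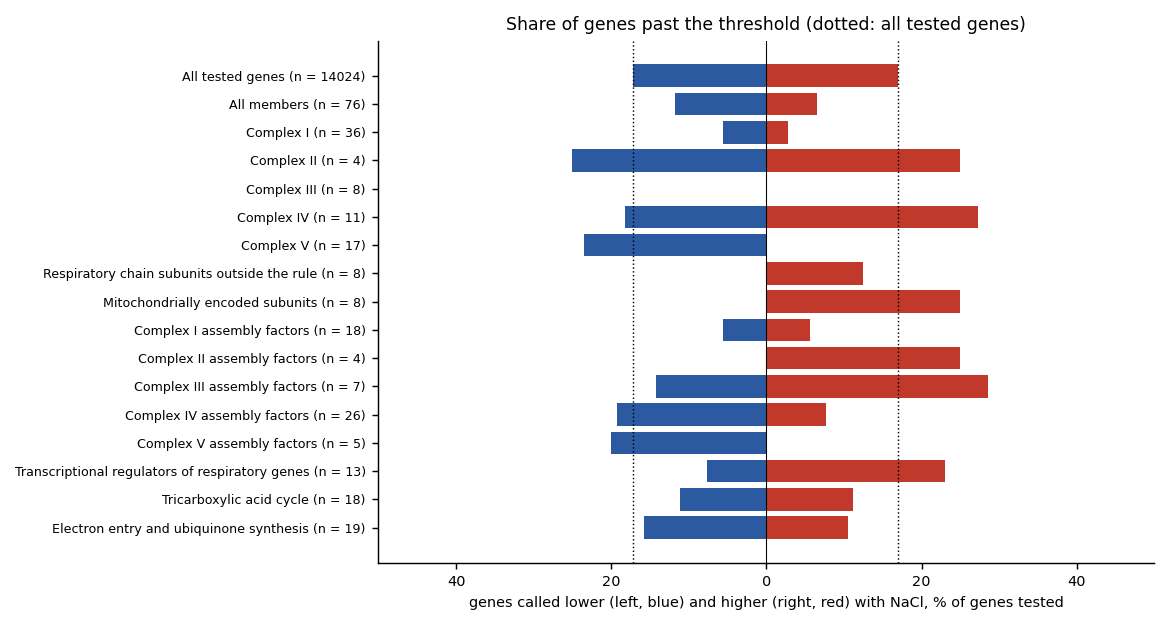
Percentage of tested genes that passed the test as lower (blue, left) or higher (red, right) with NaCl, for all tested genes, the 76 genes, each complex and each surrounding list (y axis, with the number tested). Dotted lines mark the 17.2% lower and 16.9% higher of all tested genes. Complex I lies inside them on both sides and complex III has no gene called.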

How the data were processed

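RNA of 8 libraries was measured by bulk sequencing. The authors deposited raw counts (whole numbers) for 15288 Ensembl genes, and all tests used these counts. A deposited table of normalized signal held, from its values, each library's counts over a scaling factor of its own (0.864 to 1.15), and it served in 1 alternative only. Per the submitters' processing notes, Trim Galore 0.6.7, STAR and DESeq2 1.34.0 were used with build mm10, with no role given; the counting program and the strandedness are not given in the sources used here.

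Genes were filtered in edgeR 4.0.16 (R 4.3.3) with filterByExpr at a minimum count of 10, which left 14024. TMM factors and a robust quasi-likelihood fit with group as the single term gave log2 fold changes with standard errors. The p-values were adjusted by Benjamini-Hochberg over all tested genes, with a call at 0.05. CPM used TMM-scaled totals. The fit was tested on simulated counts for 13891 genes: at a 1.2-fold change 54% of 50 changed genes were recovered, at 1.5-fold 82%, and 4.24% of calls were false. Totals of 35.29 to 47.57 M counts per library set the precision, and standard errors hold counting error and the spread between libraries (biological coefficient of variation 6.39%).

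Transcript lengths (principal transcripts), exon overlaps and shared sequence came from the GENCODE M21 annotation of GRCm38, which held all 76 genes. Shared sequence was measured with blastn 2.17.0 (at least 75 bases at 98% identity). All 8 columns of each table were matched to a sample by name.

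Named were, per complex, up to 3 called genes with the highest and up to 3 with the lowest log2 fold change and the most abundant gene, all of complex II, the 3 c-ring genes, and in each surrounding list the called genes with the highest and lowest fold change; other names were chosen after their values were seen. The 76 genes and all lists were chosen with earlier results of these data known. Alternatives were median-of-ratios factors, library totals alone, no filter, at least 10 counts in every library, DESeq2 1.42.0, limma-voom and limma on log2 of the normalized signal plus 1 (limma 3.58.1), a threshold of 0.01, the library number centred or as a drift, thinning, complexes by symbol alone, and leaving out each library. The values of 1 gene are not reported here or drawn gene by gene; it stays in all counts, sums and medians.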

Additional observations from a re-analysis of the deposited data

Results flagged for a closer look

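In 5 of 52 groups of 4 libraries, the highest or lowest library stood apart from the other 3 by Dixon's test at 95%, where chance gives about 1 in 20 groups (2.6 of 52). Cox5a had 96.27 CPM in control replicate 4 and 99.3 to 99.85 CPM in the other controls. Cox6b1 had 100.5 CPM in control replicate 1 and 107.5 to 108.6 CPM in the others. Ndufb2 had 26.2 CPM in control replicate 2 and 23.43 to 23.89 CPM in the others. Cox7c had 66.12 CPM in NaCl replicate 6 and 74.29 to 75.96 CPM in the other NaCl libraries. The complex IV sum was 1386 CPM in NaCl replicate 6 and 1497 to 1515 CPM in the others. Without NaCl replicate 6 the calls of Cox5a, Cox6b1, Cox7c and Ndufb2 all held in edgeR's test. The calls of Cox6b1 and Ndufb2 were lost without control replicate 1 (adjusted p = 0.0773 and 0.0889), and that of Cox7c was not.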

How the results depend on the processing

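No gene that passed the test changed direction under any alternative, and the median log2 fold change of each complex moved by less than the spread between libraries in all of them. Sdhc, Atp5g2 and Cox7c were called in all 19 alternatives. Cox5a and Cox6a1 lost their call under the linear drift (edgeR adjusted p = 0.089 and 0.0598) and in no other, with log2 fold changes of 0.16 and 0.19 there. With the library number centred within its group 11 genes rose instead of 5 and 12 fell instead of 9. With the drift 2 rose, Ndufs5 and Uqcr10, and neither was called in the fit of the groups alone. At a threshold of 0.01 2 rose. The number that fell went from 9 to 4 with the drift and 3 at 0.01. Those that fell with the drift included Ndufv3, which was not called without it. In complex I the number that rose went from 1 to 2 with library totals alone, 4 with the centred number and 3 with thinned counts. It was 0 with no filter, with limma-voom, with limma on the normalized signal and at 0.01. The number that fell went from 2 to 1 with library totals, the drift and thinning, and 0 at 0.01. The complex I genes called with the drift were Ndufs5, higher, and Ndufv3, lower. No complex I call of the fit of the groups alone held there. In complex II the gene that rose was lost with the drift and at 0.01 (0 each). In complex III 1 gene rose with the centred number and 1 with the drift, and 1 fell with the centred number. In complex IV 0 rose with the drift, and 1 fell with the drift and at 0.01. In complex V 1 rose with the centred number, and 1 fell with the drift and at 0.01. Leaving out each library in turn gave 3 to 6 genes that rose and 5 to 9 that fell, with 0 to 2 and 1 to 2 in complex I, 0 to 1 falling in complex III, 2 to 3 and 1 to 2 in complex IV, and 2 to 4 falling in complex V. The cause of these changes was not tested. No paired analysis was possible because the library numbers of the groups, 1 to 4 and 5 to 8, share none. At this depth the simulated counts recovered 54% of 1.2-fold changes. A far smaller part of the genes changed in that simulation than was called here, and they were drawn from all tested genes. The 54% is therefore not the share for the respiratory chain genes, which was not tested. Changes of the size seen here can be missed.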

Other observations

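Ratios of genes within a complex were computed after the results were seen and are given without a test. The CPM ratio of Cox6a1 to Cox7c was 1.40 to 1.59 in control and 1.82 to 1.92 with NaCl. The ratio of the ATP synthase subunits beta and alpha, Atp5b to Atp5a1, was 1.56 to 1.71 in control and 1.48 to 1.61 with NaCl, with overlap. Of the 76 genes, 28 shared sequence with another annotated gene over at least 75 bases, 6 of them among the 14 that passed the test, and 19 shared over 25% of their transcript. Beside copies elsewhere, these counts hold genes whose exons overlap another gene at the same place on either strand, such as Cox5a, Ndufb9 and Ndufb2.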
